A study of Mus musculus with 37 samples.

Results

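Decapping and P-body factors take messenger RNAs out of translation and remove their cap, and 10 of their genes are described here in single mouse oocytes: Dcp1a, Dcp1b, Dcp2, Edc3, Edc4, Ddx6, Xrn1, Lsm14a, Lsm14b and Patl2. They were chosen by name, with earlier results of these data known, and all 10 were found among the 54752 gene rows of the files. The study sequenced RNA from 37 single oocytes of C57BL/6 females aged 6 to 8 weeks, with Smart-seq2 libraries made in 2 batches. Batch A held 6 fully grown oocytes with an intact nucleus (germinal vesicle, GV) and 6 eggs at metaphase II (MII). Batch B held 10 GV oocytes and 15 oocytes at metaphase I (MI). GV oocytes came from ovaries 48 h after PMSG, a hormone that makes follicles grow. MII eggs came from the ampulla 15 h after hCG, which triggers ovulation and was given 48 h after PMSG. MI oocytes were GV oocytes kept in M16 medium for 8 h. The zona pellucida and, where present, the polar body were removed from the oocytes. MII eggs matured in the animal and MI oocytes in culture, in different batches, so stage, source and batch cannot be told apart when the MII and MI changes are set side by side.

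A messenger RNA whose poly(A) tail has been shortened can lose its cap to the enzyme Dcp2, which works with activators (Dcp1a, Dcp1b) and scaffolds (Edc3, Edc4), and the uncapped RNA is then degraded by the exonuclease Xrn1. The helicase Ddx6 and its partners of the Lsm14 and Pat1 families hold RNAs in a repressed state, and in many cells all of these proteins gather in cytoplasmic granules called P-bodies. A growing mouse oocyte stores its maternal RNAs in repressed form and degrades many of them during meiotic maturation, and Dcp1a and Dcp2 RNAs are themselves known as stored maternal RNAs that are translated at that time.

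Levels are RSEM expected counts per gene, scaled for library size by edgeR's TMM within each batch and given as CPM. The total over genes ran from 7509812 to 12648570 expected counts per oocyte in GV and from 9930422 to 13988340 in MII of batch A, from 7184193 to 17724510 in GV and from 2709247 to 19390140 in MI of batch B. Some libraries stood apart. MI oocyte 15 had the lowest total, 2709247, and 12654 genes detected, against 15697 to 19550 in the other MI oocytes. Detected genes numbered 29816 in MII egg 1 and 19574 to 22598 in the rest of that group. In MI oocytes 4, 8 and 9 the HTSeq count of a gene was a median of 1.07 to 1.13 times its RSEM count, against 1.98 to 2.20 in the other 34 oocytes. For named genes and transcripts, a call or direction that changed without these libraries is given beside the value. The share of all counts on 1 ribosomal RNA-like gene, CT010467.1, had a median of 16.1% in GV and 21.2% in MII of batch A, and its part in the results was not tested.

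The oocyte label was borne out by its markers, 12 genes with zona and oocyte-factor genes such as Gdf9, whose summed level had a median of 13963 CPM in GV and 8936 CPM in MII of batch A and of 5011 and 4354 CPM in GV and MI of batch B. The 13 granulosa and cumulus markers summed to a median of 31.7 CPM (21.9 to 41.0) in GV and 23.8 CPM (19.97 to 32.8) in MII of batch A, and to 24.2 CPM (19.95 to 53.2) in GV and 21.8 CPM (13.7 to 27.6) in MI of batch B. Cyp19a1 was the most abundant of them in all 4 groups, while Amh, Amhr2, Foxl2 and Ptx3 had group means between 0 and 0.0837 CPM. Other markers of the list were detected. The number of the 13 at 0 had a median of 4.5 in GV and 7.5 in MII of batch A, and of 7.5 in GV and 8 in MI of batch B. The granulosa sums gave two-sided exact permutation p = 0.0758 for MII against GV and two-sided permutation p = 0.0163 for MI against GV, and in batch B 2 of the 5 granulosa markers tested, Gja1 (log2 fold change -3.42) and Ccnd2 (-3.69), were lower in MI, as were 0.0483% of all genes. The median log2 fold change of the 5 was -0.22, and Cyp19a1 had a median of 14.3 CPM in GV and 14.7 in MI. The part of these cells in the results below was not tested. The 7 blood and immune markers summed to a median of 0.749 CPM in GV and 1.38 CPM in MII of batch A, with 17.3 CPM in MII egg 1, and to 5.19 and 3.30 CPM in GV and MI of batch B.

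The members differed widely in level. On the scale of CPM per kilobase of count-weighted transcript length, which allows genes to be compared, Dcp1a stood at 89.5 ± 25.1 (SD, n = 6) in GV of batch A, Lsm14a at 87.2 ± 21.6 and Lsm14b at 75.5 ± 37.6. These 3 neighbours did not differ beyond their spread and lay above 94.3% or more of the genes tested. Edc4 followed at 21.96 ± 6.12, Patl2 at 15.6 ± 4.34 and Dcp2 at 9.95 ± 1.28 CPM per kb, with Edc4 and Patl2 overlapping in their spread. Ddx6 (5.08 ± 2.90) and Xrn1 (4.04 ± 0.344) lay near the median of all genes tested, 5.47 CPM per kb, and within each other's spread. The paralogue Dcp1b stood at 0.685 ± 0.375 and Edc3 at 0.148 ± 0.108 CPM per kb, levels that rested on a mean of 20.8 and 7.17 expected counts per oocyte. In MII of batch A the order began with Dcp1a (145 ± 34.2), Lsm14a (140 ± 8.77) and Lsm14b (102 ± 25.5), and Dcp2 (15.7 ± 1.83) stood above Patl2 (8.75 ± 1.78), the reverse of their order in GV. In GV of batch B Lsm14b (107 ± 31.3) led, before Dcp1a (66.0 ± 10.6) and Lsm14a (52.8 ± 15.9), and Patl2 (4.19 ± 2.19) stood near Ddx6 (3.67 ± 1.13).

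The comparison of GV with MII in batch A asks how these RNAs differ between the fully grown oocyte and the mature egg. By edgeR's quasi-likelihood test with Benjamini-Hochberg adjustment, 4 of the 10 members (Dcp1a, Dcp2, Xrn1 and Lsm14a) were higher in MII at adjusted p under 0.05 relative to the other genes (9.06% of the 12929 genes tested were), although all 4 lay slightly below 0 when libraries were scaled to ERCC spike-ins. Patl2 was lower in MII on both scales (11.5% of all genes were lower by TMM). The members' median log2 fold change was 0.53, against 0.01 over all genes tested. Spike-in RNA was counted in every oocyte of batch A, and scaling to it in place of TMM moved the median log2 fold change of all genes by -0.73, to -0.72. This scale assumes an equal spike-in input in each oocyte, and the amount added is not stated. No member passed the stricter call of adjusted p under 0.05 and a fold over 2 with edgeR (2.15% of all genes passed higher and 6.32% lower), while Edc3 passed it at unadjusted p under 0.05 and with DESeq2. In 3 members (Dcp2, Xrn1 and Lsm14a) every MII egg lay above every GV oocyte, which held for 4.08% of all genes, and no member had every MII egg below every GV oocyte, which held for 5.71%.

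**Figure D1:**
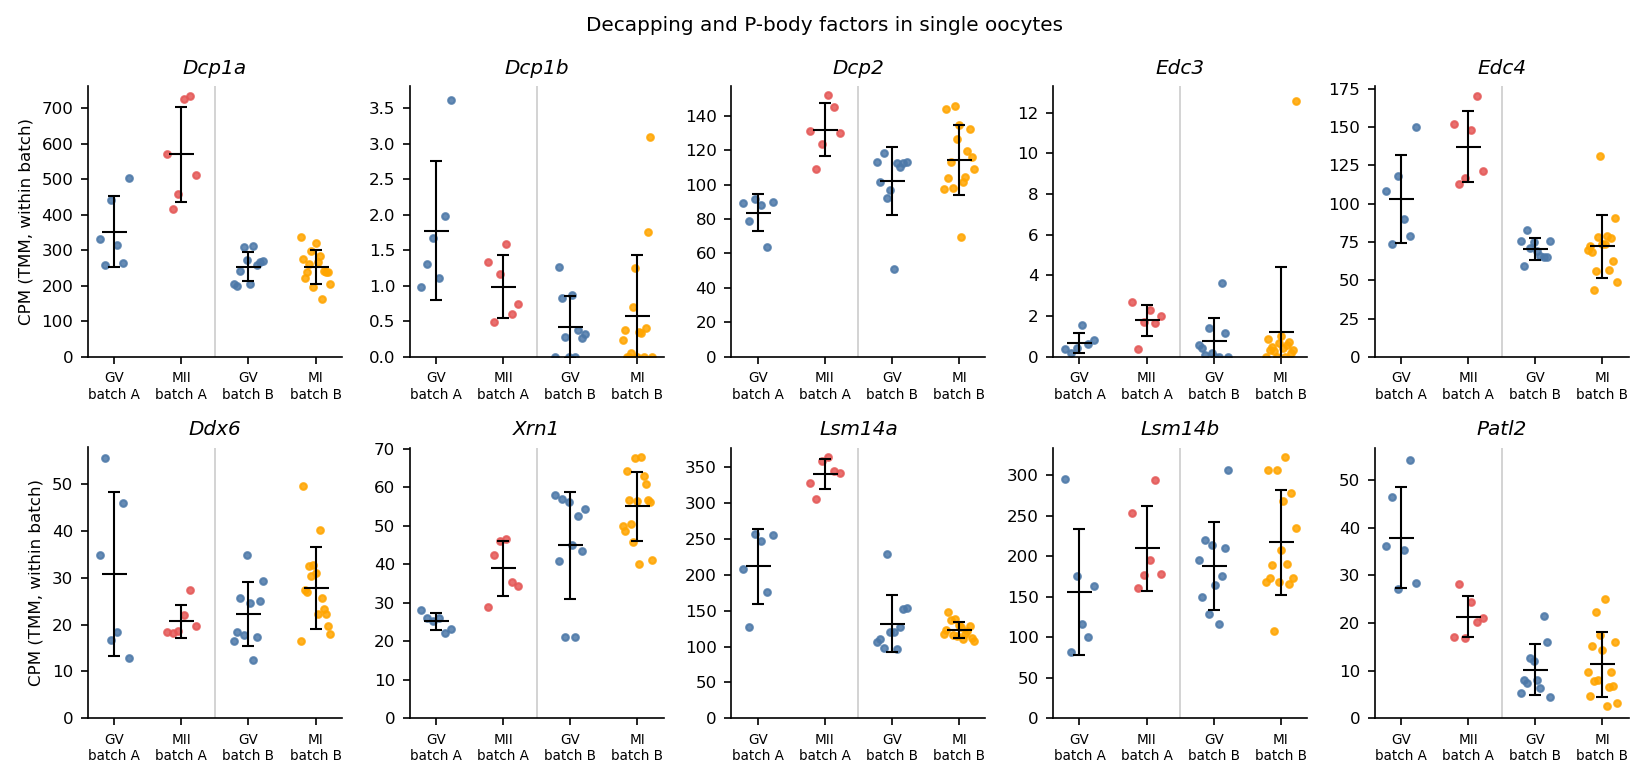
Level of the 10 members in each of the 37 oocytes, as CPM after TMM within each batch (vertical axis), by stage and batch (horizontal axis), with the mean and SD as black bars. By TMM all 6 MII eggs lie above all 6 GV oocytes of batch A for Dcp2, Xrn1 and Lsm14a, which were not higher when scaled to spike-ins, and the GV and MI oocytes of batch B overlap for all 10 members.

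Dcp2, the enzyme that cleaves the cap, ranged from 63.9 to 91.9 CPM with a median of 88.8 in the 6 GV oocytes of batch A, and from 109 to 152 with a median of 130 in the 6 MII eggs. The groups did not overlap, and 5 of the GV oocytes lay close together with GV oocyte 5 lowest. Dcp2 was higher in MII by a log2 fold change of 0.66 (SE 0.13, 95% interval 0.38 to 0.93, edgeR quasi-likelihood test, Benjamini-Hochberg adjusted p = 0.00262) by TMM, and stood at -0.08 (adjusted p = 0.791) scaled to spike-ins.

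Dcp1a, the main Dcp1 paralogue here and an activator of Dcp2, ranged from 258 to 504 CPM with a median of 325 in GV and from 418 to 734 with a median of 541 in MII. All 6 MII eggs lay above the GV median and 4 of them above every GV oocyte, while GV oocytes 3 and 6 reached the range of the lower MII eggs. By TMM it was higher in MII by 0.69 (SE 0.19, 95% interval 0.29 to 1.10, adjusted p = 0.0185 by edgeR's quasi-likelihood test with Benjamini-Hochberg), and by spike-ins it stood at -0.03 (adjusted p = 0.915). The Dcp1a gene overlaps Cacna1d on the other strand, and the strandedness of the counting is not stated, so reads of the 2 genes in the overlap may not be separated. Dcp1b, its paralogue, ranged from 0.984 to 3.62 CPM in GV and from 0.488 to 1.59 in MII. The groups overlapped, with GV oocyte 6 highest, and the log2 fold change of -0.85 (95% interval -1.76 to 0.05, adjusted p = 0.171, edgeR quasi-likelihood test with Benjamini-Hochberg) did not pass, while by spike-ins it was -1.57 and passed (adjusted p = 0.0139). Without GV oocyte 6 the TMM value of Dcp1b was -0.52.

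Edc4, a large scaffold that joins Dcp1 and Dcp2, ranged from 73.5 to 150 CPM with a median of 98.9 in GV and from 113 to 170 with a median of 135 in MII. All MII eggs lay above the GV median, but GV oocytes 3 and 6 reached into their range. Its log2 fold change was 0.41 by TMM (95% interval 0.04 to 0.79, adjusted p = 0.111, edgeR's quasi-likelihood test with Benjamini-Hochberg) and -0.33 by spike-ins (adjusted p = 0.307). Without GV oocyte 6 it passed by TMM, at 0.55 (adjusted p = 0.0290). Edc3, an activator of decapping that also builds P-bodies, was near the limit of detection, from 0.164 to 1.55 CPM in GV and from 0.390 to 2.68 in MII. In MII 5 of the 6 eggs lay above every GV oocyte and MII egg 2 lay among the GV oocytes, and the log2 fold change was 1.42 (95% interval 0.32 to 2.51, adjusted p = 0.0622, edgeR's quasi-likelihood test with Benjamini-Hochberg). Edc3 passed without GV oocyte 4 (1.82, adjusted p = 0.0309), without MII egg 2 (1.63, adjusted p = 0.0272) and with DESeq2 (1.44, adjusted p = 0.0467), but the HTSeq counts of the same libraries gave 0.529 ± 0.477 CPM in GV and 0.562 ± 0.534 in MII (SD, n = 6).

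Xrn1, the exonuclease that degrades uncapped RNA in the cytoplasm, ranged from 22.2 to 28.2 CPM with a median of 25.7 in GV and from 28.9 to 46.7 with a median of 39.0 in MII. The GV oocytes lay close together, and the lowest egg, MII egg 1, lay just above the highest of them. Xrn1 was higher in MII by 0.63 by TMM (SE 0.15, 95% interval 0.31 to 0.95, adjusted p = 0.00786 by edgeR's quasi-likelihood test with Benjamini-Hochberg) and stood at -0.11 by spike-ins (adjusted p = 0.714).

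Lsm14a, a repressor that binds Ddx6, ranged from 127 to 257 CPM with a median of 227 in GV and from 306 to 364 with a median of 343 in MII. The eggs were closely alike and all lay above the GV oocytes, among which oocytes 2 and 5 were lowest. By TMM Lsm14a was higher in MII by 0.68 (SE 0.16, 95% interval 0.35 to 1.02, adjusted p = 0.00703 by edgeR's quasi-likelihood test with Benjamini-Hochberg), and by spike-ins it stood at -0.04 (adjusted p = 0.880). Its paralogue Lsm14b, an oocyte-rich member of the same family, ranged from 81.9 to 295 CPM with a median of 140 in GV and from 160 to 294 with a median of 187 in MII. Its groups overlapped, with GV oocyte 1 above all eggs and GV oocytes 3 and 6 above the lowest egg, and its log2 fold change was 0.43 by TMM (95% interval -0.12 to 0.98, adjusted p = 0.260, edgeR's quasi-likelihood test with Benjamini-Hochberg) and -0.41 by spike-ins (adjusted p = 0.319). Without GV oocyte 1 Lsm14b passed by TMM, at 0.72 (adjusted p = 0.0315).

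Patl2, the Pat1-family RNA-binding protein of oocytes, ranged from 27.0 to 54.2 CPM with a median of 35.7 in GV and from 16.9 to 28.1 with a median of 20.6 in MII. In this gene 5 eggs lay below every GV oocyte and MII egg 2 lay just inside the GV range, while GV oocytes 5 and 2 were highest. Patl2 was lower in MII by TMM, at -0.83 (SE 0.20, 95% interval -1.24 to -0.42, adjusted p = 0.00757 by edgeR's quasi-likelihood test with Benjamini-Hochberg), and by spike-ins, at -1.57 (adjusted p = 0.000246). When the 37 oocytes were fitted together and batch entered as a covariate, Patl2 was -0.77 and did not pass (adjusted p = 0.257). Ddx6, the helicase at the centre of these repressor complexes, ranged from 12.8 to 55.7 CPM with a median of 26.7 in GV and from 18.2 to 27.4 with a median of 19.1 in MII. Its GV oocytes spread far more than its eggs: oocytes 1, 2 and 5 lay above all eggs. The log2 fold change was -0.57 by TMM (95% interval -1.22 to 0.08, adjusted p = 0.200 by edgeR's quasi-likelihood test with Benjamini-Hochberg) and -1.37 by spike-ins, where it passed (adjusted p = 0.00503). Without GV oocyte 2 the TMM value was -0.32.

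The levels were also read on the spike-in scale. In units of counts per 1000 spike-in counts, Dcp2 had a median of 10.0 (6.21 to 16.3) in GV and 9.70 (8.12 to 12.5) in MII, Lsm14a 28.1 (14.9 to 37.8) and 25.7 (23.3 to 29.96), and Xrn1 3.22 (1.84 to 5.13) and 3.00 (2.23 to 3.84). These genes overlapped fully between the stages on this scale, with a wider spread in GV, where the spike-in counts themselves ran from 44663 to 128319 against 120280 to 143062 in MII. Patl2 had a median of 4.60 (2.49 to 8.25) in GV and 1.56 (1.11 to 2.39) in MII, and these ranges did not overlap, by a narrow margin. The share of all genes without overlap was not counted on this scale. By edgeR's quasi-likelihood test with spike-in library sizes, 3 members (Dcp1b, Ddx6 and Patl2) were lower in MII, as were 42.2% of all genes, and none was higher, as were 1.11% of all genes. At unadjusted p under 0.05 none was higher either, and no other tool was run on this scale. Edc3 was the only member above 0 by spike-ins, at 0.83, and did not pass (adjusted p = 0.188). Relative to the median gene on the same scale, Edc3 stood at 1.55, Dcp1a at 0.68, Lsm14a at 0.67, Dcp2 at 0.64, Xrn1 at 0.60, Edc4 at 0.39, Lsm14b at 0.30, Ddx6 at -0.65, Dcp1b at -0.85 and Patl2 at -0.86.

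**Figure D2:**
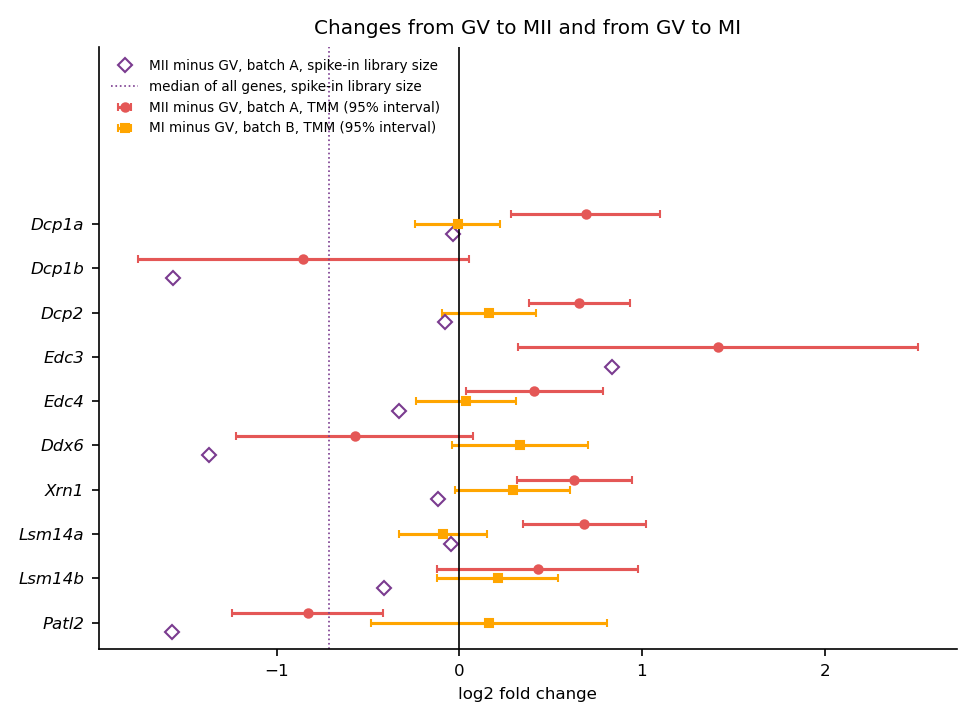
Log2 fold change (horizontal axis) of each member from GV to MII in batch A by TMM (circles) and by spike-in library size (diamonds), and from GV to MI in batch B by TMM (squares), with bars for 95% intervals of the TMM values and a dotted line for the median of all genes by spike-ins, -0.72. Dcp1a, Dcp2, Xrn1 and Lsm14a lie between 0.63 and 0.69 by TMM and between -0.11 and -0.03 by spike-ins, and Patl2 lies below 0 on both scales.

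The comparison of GV with MI in batch B asks the same of oocytes that resumed meiosis in culture, 8 h on. Of the 10 members 8 passed the low-count filter, and Dcp1b and Edc3 did not. None of the 8 changed by edgeR's quasi-likelihood test with Benjamini-Hochberg (0.0966% of the 12419 genes tested were higher and 0.0483% lower), none reached an unadjusted p under 0.05, and DESeq2 also called none. Over all genes 1371 reached an unadjusted p under 0.05, against 4441 in batch A. Spike-in counts ran from 0 to 32 per oocyte in batch B, so no spike-in scale could be used there.

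In batch B Dcp2 ranged from 50.9 to 118 CPM with a median of 111 in GV and from 69.6 to 146 with a median of 113 in MI, with a log2 fold change of 0.16 (95% interval -0.09 to 0.42). GV oocyte 6 was lowest by far, and 6 of the 15 MI oocytes lay above every GV oocyte while the rest lay among them. Dcp1a had a median of 263 CPM (199 to 313) in GV and 243 (162 to 338) in MI, and its log2 fold change of -0.01 (95% interval -0.24 to 0.22) turned to 0.01 with HTSeq counts, to 0.01 without MI oocyte 15 and to 0.09 with the oocyte number as a replicate block. Lsm14a had a median of 120 CPM (96.6 to 229) in GV and 122 (108 to 148) in MI, a log2 fold change of -0.09 (95% interval -0.33 to 0.15). Its MI oocytes lay closely together inside the GV range, and GV oocyte 4 alone stood far above all others.

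Xrn1 had a median of 48.8 CPM (21.1 to 57.9) in GV and 56.5 (40.1 to 68.0) in MI, with a log2 fold change of 0.29 (95% interval -0.02 to 0.61). In MI 5 of the 15 oocytes lay above every GV oocyte, and a pair of GV oocytes lay below all MI oocytes. Ddx6 had a median of 21.5 CPM (12.5 to 34.9) in GV and 27.1 (16.5 to 49.7) in MI, a log2 fold change of 0.33 (95% interval -0.04 to 0.71), with 12 of the 15 MI oocytes above the GV median. Patl2 spread widely in both stages, with a median of 8.00 CPM (4.47 to 21.4) in GV and 9.70 (2.57 to 25.1) in MI, and its log2 fold change was 0.16 (95% interval -0.49 to 0.81). The scaffold Edc4 stood at 0.04 (95% interval -0.24 to 0.31) and Lsm14b at 0.21 (95% interval -0.12 to 0.54). Adjusted p for the 8 members ran from 0.497 for Xrn1 to 0.990 for Dcp1a by edgeR's quasi-likelihood test with Benjamini-Hochberg. Dcp1b was at 0 counts in 3 of 10 GV and 5 of 15 MI oocytes, and Edc3 in 3 GV and 3 MI oocytes, with 12.6 CPM of Edc3 in the shallow MI oocyte 15, where the HTSeq count was 0.

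The test of the difference between the MII change and the MI change, over all 37 oocytes, found a larger value in MII for 2 members, Dcp1a and Lsm14a (3.1% of the 15083 genes tested were higher and 2.36% lower by edgeR's quasi-likelihood test with Benjamini-Hochberg), where the MII change enters by TMM and was near 0 by spike-ins. Lsm14a differed by 0.85 (95% interval 0.44 to 1.26, adjusted p = 0.00848) and Dcp1a by 0.76 (95% interval 0.33 to 1.20, adjusted p = 0.0257). The Dcp1a difference did not pass with HTSeq counts (0.71, adjusted p = 0.0675) or without the low-count filter (0.70, adjusted p = 0.0524). Dcp2 differed by 0.56 (adjusted p = 0.103), Xrn1 by 0.41 (adjusted p = 0.412), Ddx6 by -0.83 (adjusted p = 0.175) and Patl2 by -0.92 (adjusted p = 0.313), none of which passed the same test. No member was lower in this test, and 1 was at unadjusted p under 0.05 with edgeR, the tool used for it.

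Annotated transcripts were compared next, since the study's main question concerns isoforms. The files hold 59 transcripts of the members, of which 24 passed the filter in batch A. By edgeR's quasi-likelihood test with Benjamini-Hochberg, 3 were higher in MII by TMM (3.49% of the 22461 transcripts tested were) and 1 was lower (5.81% were), and no spike-in scale was run for transcripts. None passed with a fold over 2 (1.35% of all passed higher and 4.23% lower), at unadjusted p under 0.05 or with DESeq2. Dcp2-201, which held 96.7 ± 1.79% (SD, n = 6) of the gene's counts in GV and 97.8 ± 1.04% in MII, was higher by 0.66 (SE 0.13, adjusted p = 0.00759). Lsm14a-201 was higher by 0.75 (SE 0.19, adjusted p = 0.0260). Patl2-201, the only annotated transcript of Patl2, stood at -0.85 (SE 0.20, adjusted p = 0.0200). Dcp1a-209, whose biotype is nonsense-mediated decay and which was named after its values were seen, was higher by 0.58 (SE 0.15, adjusted p = 0.0282), and at 0.58 did not pass without MII egg 1 (adjusted p = 0.0581). Dcp1a-201, the most counted transcript of Dcp1a, stood at 0.77 and did not pass (adjusted p = 0.124). Edc4-201, Lsm14b-201, Xrn1-202 and Ddx6-201, the most counted of their genes in batch A, did not pass either (adjusted p from 0.406 to 0.539). The 4 transcripts that passed (Dcp2-201, Lsm14a-201, Patl2-201 and Dcp1a-209) all lost their call without the low-count filter. Their adjusted p then ran from 0.0598 for Lsm14a-201 to 0.135 for Dcp1a-209 by the same test.

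Dcp1a counts were divided between Dcp1a-201, the most counted, with 43.5 ± 4.75% in GV and 45.9 ± 7.85% in MII of batch A, Dcp1a-209 with 40.4 ± 5.02% and 38.6 ± 6.94%, and the short Dcp1a-218 with 11.2 ± 3.13% and 10.9 ± 0.860%. These shares were alike in the 2 stages. In Lsm14a the most counted transcript, Lsm14a-201, held 57.8 ± 7.39% in GV and 61.1 ± 7.48% in MII, and Lsm14a-208 held 40.7 ± 7.58% and 37.3 ± 7.60%. Lsm14a-206, also of the nonsense-mediated decay biotype, held 1.16 ± 0.306% and 1.23 ± 0.451% in batch A but 14.2 ± 10.9% (n = 10) in GV and 24.4 ± 15.7% (n = 15) in MI of batch B, while Lsm14a-208 held 15.2 ± 10.5% and 11.8 ± 6.59% there. These differences between batches were seen in the values and not tested. The transcripts of other members with the highest mean count in batch A were Edc4-201 (75.7 ± 14.1% in GV, 69.3 ± 10.6% in MII), Lsm14b-201 (63.8 ± 7.49%, 62.3 ± 3.72%) and, at few counts, Dcp1b-202 (37.99 ± 25.8%, 39.0 ± 38.6%). Edc3-202, of the same biotype, took the highest share of Edc3 in batch A, with a mean of 3.10 counts in GV and 17.1 in MII, against 3.71 and 1.14 counts for the coding Edc3-201, while in batch B Edc3-201 held the higher mean share (70.8% in GV and 91.7% in MI of the oocytes with Edc3 counts). Ddx6-201 held above 98% of Ddx6 counts in 3 MII eggs and none in 2, so its mean share (57.0 ± 49.2% in MII, 75.9 ± 21.96% in GV) does not describe a typical egg.

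Counts of Xrn1 were divided among 4 main transcripts. Xrn1-202 held 35.4 ± 8.40% in GV and 30.1 ± 11.0% in MII, Xrn1-201 26.0 ± 11.5% and 35.3 ± 16.2%, Xrn1-207, which retains an intron, 20.9 ± 10.5% and 27.1 ± 10.4%, and Xrn1-209 16.7 ± 5.76% and 5.96 ± 3.33%. Xrn1-209, named after its values were seen, ranged from 8.86 to 23.3% of Xrn1 counts in GV and from 1.90 to 11.3% in MII, and the ranges overlapped. None of the 7 members in the transcript usage test passed (4.84% of the 5477 genes in it did, edgeR diffSpliceDGE with Benjamini-Hochberg), 1 was at unadjusted p under 0.05, and limma's diffSplice also found none. That 1 was Xrn1 (p = 0.00906, adjusted p = 0.138 by edgeR). The count-weighted length of the 3′-UTR did not change in any of the 5 members that could be tested by limma (3.89% of the 5194 genes tested were longer in MII and 0.635% shorter), and none was at unadjusted p under 0.05. It was 7000 ± 129 nucleotides in GV and 7078 ± 75.2 in MII for Dcp2 and 2378 ± 488 and 2262 ± 793 for Xrn1. In batch B none of the 25 member transcripts tested changed by edgeR's quasi-likelihood test (0% higher and 0% lower among all 22717), 1 was at unadjusted p under 0.05, and DESeq2 called none.

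**Figure D3:**
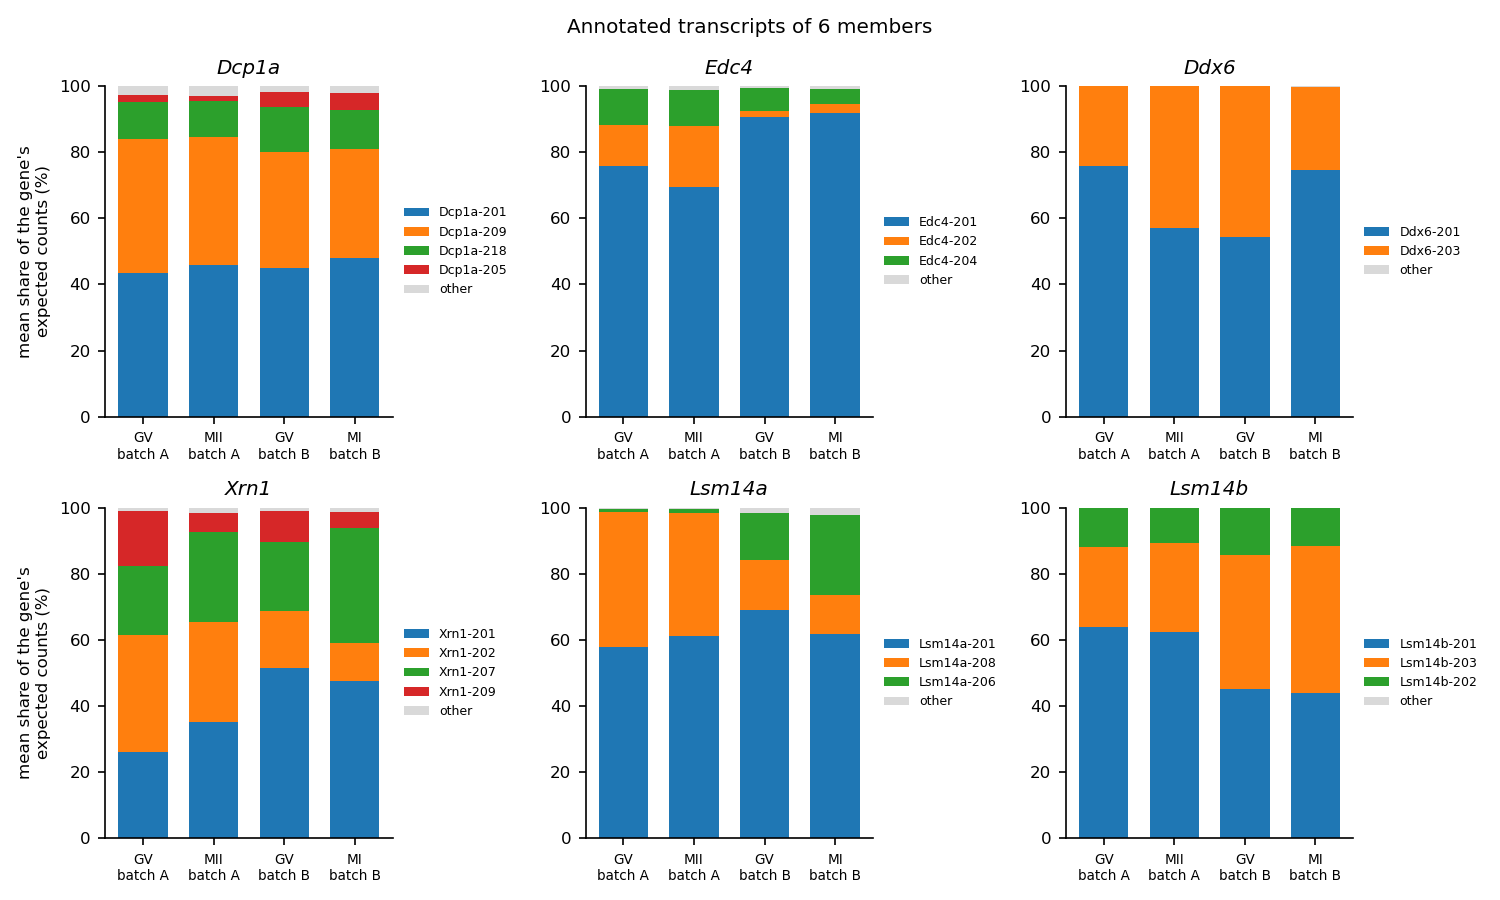
Mean share of a gene's expected counts (vertical axis, percent) on each annotated transcript of 6 members, by stage and batch (horizontal axis), with transcripts under 5% in all 4 groups joined as other. Lsm14a-206 holds 1.16 to 1.23% in batch A and 14.2 to 24.4% in batch B, and the Ddx6 bars average oocytes that differ widely.

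The last 100 bases of 1 coding transcript of each member, the one with the highest mean count over the oocytes of batch A, were searched on the sense strand for 2 motifs that act in adding poly(A) tails. For Xrn1 this was Xrn1-202, although Xrn1-201, which ends elsewhere and was not searched, had more counts in MII and in both groups of batch B. The letters TTTTAT or TTTTAAT, those of the cytoplasmic polyadenylation element bound by Cpeb1, were present in 2 of the 10 members, Dcp1a-201 and Lsm14a-201, and in 20.2% of the 10704 transcripts searched. The letters of the polyadenylation signal, AATAAA or ATTAAA, were present in 9 of the 10 and in 81.4% of all, and the exception was Edc3-201. Both sets of letters were present in 17.2% of all. The sites of the pair are shown because Dcp1a and Lsm14a are the members whose MII change by TMM differed from the MI change. Both MII changes were near 0 by spike-ins, and the Dcp1a difference did not pass with HTSeq counts or without the low-count filter. A link between the letters and the changes was not tested. The signals of Patl2 and Xrn1 are shown for members without the other letters. Capitals mark the matched letters, and the match shown in each of Dcp1a and Lsm14a overlaps a polyadenylation signal by its last letters. Dcp1a-201 holds 2 matches to the element, of which 1 overlaps a signal. A match describes the sequence and does not show that a site is used. The sequences are from GENCODE M21 transcripts with GRCm38 coordinates: chr14:30527010-30527039 (plus strand) in Dcp1a, chr7:34344669-34344698 (minus strand) in Lsm14a, chr2:122120115-122120144 (minus strand) in Patl2 and chr9:96057762-96057791 (plus strand) in Xrn1.
Dcp1a-201: caaatatatttTTTTAATaaaatttcaaaa
Lsm14a-201: ccactttgtgtTTTTAATaaaggccatgga
Patl2-201: ggccttgtatttAATAAAagtctaatctgg
Xrn1-202: gctatgattttgATTAAAgatggaatgacg

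Of the genes, Dcp1a (ENSMUSG00000021962) lies on chromosome 14 at 30479535 to 30527063, Dcp2 (ENSMUSG00000024472) on chromosome 18 at 44380502 to 44424969, Xrn1 (ENSMUSG00000032410) on chromosome 9 at 95954760 to 96057803, Lsm14a (ENSMUSG00000066568) on chromosome 7 at 34344646 to 34393315 and Patl2 (ENSMUSG00000027233) on chromosome 2 at 122120108 to 122186189, in GRCm38. Dcp2 and Lsm14b overlap no other annotated gene. Patl2 overlaps Trim69 and B2m on the other strand, Edc3 overlaps Clk3 and Dcp1b overlaps Cacna1c on the other strand, Edc4 overlaps Nrn1l on the same strand, and Ddx6, Xrn1 and Lsm14a overlap noncoding genes or pseudogenes. Counts in these overlaps may not be separated between the genes.

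Genes that work beside the members were read as 4 lists. The Lsm ring and Pat1, which bind shortened tails and bring in the decapping enzyme, had 2 of 8 genes lower (11.5% of all genes were) and none higher (9.06% of all genes were) in MII of batch A by edgeR's quasi-likelihood test (1 was higher at unadjusted p under 0.05, and none with DESeq2), with a median log2 fold change of -0.32. The ring subunit Lsm2 was at 34.9 ± 7.99 CPM (SD, n = 6) in GV and 22.2 ± 5.63 in MII (log2 fold change -0.65, Benjamini-Hochberg adjusted p = 0.0287), and Lsm3 at 72.0 ± 16.9 and 47.98 ± 13.3 (-0.59, adjusted p = 0.0410). Neither passed with HTSeq counts (Lsm2 -0.41, adjusted p = 0.167, and Lsm3 -0.53, adjusted p = 0.100), and both were lower by spike-ins. Without MII egg 1 Lsm2 was -0.57 (adjusted p = 0.0683) and Lsm3 -0.52 (adjusted p = 0.0914). Of the 12 fits that left out 1 oocyte, Lsm2 did not pass in 5 and Lsm3 in 7, the same 5 and those without GV oocyte 3 and MII egg 2 (adjusted p = 0.0640 and 0.0823). The count of lower genes was 0 in the 5 fits shared by both, without GV oocyte 4 or 5 or MII egg 1, 4 or 5, with the replicate block and with batch as a covariate, and 1 without GV oocyte 3.

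Other cap and decay enzymes and decapping partners had 1 of 8 genes lower and 1 higher, against 11.5% and 9.06% of all genes, with a median of -0.26. Pnrc1, a coactivator whose protein binds the decapping complex, was lower, at 54.2 ± 25.0 CPM in GV and 18.0 ± 4.13 in MII (-1.59, adjusted p = 0.00161, edgeR's quasi-likelihood test with Benjamini-Hochberg), and its groups overlapped by CPM. Xrn2, the nuclear exonuclease related to Xrn1 and named after its values were seen, was at 64.5 ± 5.74 and 91.5 ± 13.4 CPM, 0.50 by TMM (adjusted p = 0.0125) and -0.23 by spike-ins (adjusted p = 0.411). By TMM Xrn2 did not pass without the low-count filter (0.48, adjusted p = 0.0762) or with the replicate block (0.50, adjusted p = 0.0576). The count of lower genes in this list was 2 without GV oocyte 2 and with DESeq2.

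P-body and repression partners had 4 of 16 genes lower and 1 higher, against 11.5% and 9.06% of all genes, with a median of 0.04, and Ajuba and Wtip of this list did not pass the filter. Ybx2, the RNA-binding protein that packages maternal RNA, was lower, at 92.6 ± 27.7 CPM in GV and 38.6 ± 15.5 in MII (-1.26, adjusted p = 0.00234 by edgeR's quasi-likelihood test with Benjamini-Hochberg). The helicase Mov10 was at 4.31 ± 1.37 and 1.88 ± 0.802 CPM (-1.19, adjusted p = 0.0226), and did not pass without the low-count filter (-1.21, adjusted p = 0.0554) or without MII egg 1 (-1.05, adjusted p = 0.0513). Mov10 also missed the threshold without GV oocyte 6 (adjusted p = 0.0501), with the replicate block (adjusted p = 0.0790) and with batch as a covariate (adjusted p = 0.509). A further 3 genes were named after their values were seen. Cpeb1, which binds the cytoplasmic polyadenylation element, was at 445 ± 75.2 CPM in GV and 228 ± 21.6 in MII, with every egg below every GV oocyte (-0.96, adjusted p = 0.000129). By edgeR's test of the difference, its MII change was lower than its MI change by -1.01 (adjusted p = 8.98e-05), as was that of Ybx2 by -1.21 (adjusted p = 0.0162). In that test 2.36% of all genes were lower, and the other list genes are not given here. Stage, source and batch cannot be told apart in it. Zar1l, a maternal RNA-binding protein, was lower (-0.80, adjusted p = 0.00349). Tnrc6a, the partner of Argonaute proteins, stood at 0.70 by TMM (adjusted p = 0.0207) and -0.02 by spike-ins (adjusted p = 0.952), and did not pass by TMM without the low-count filter (0.68, adjusted p = 0.0772), with the replicate block (0.70, adjusted p = 0.0740) or with batch as a covariate (0.76, adjusted p = 0.111). The count of higher genes in this list was 2 without GV oocyte 3, without MII egg 2 and with DESeq2, and 0 with the replicate block.

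The exosome and Ski complexes, which degrade RNA from the other end, had 2 of 14 genes lower and none higher by edgeR, against 11.5% and 9.06% of all genes (3 were higher at unadjusted p under 0.05, and none with DESeq2), with a median of -0.04. Exosc1 was at 41.5 ± 7.77 CPM in GV and 19.5 ± 7.40 in MII, with every egg below every GV oocyte (-1.09, adjusted p = 0.00401 by edgeR's quasi-likelihood test with Benjamini-Hochberg), and it did not pass with batch as a covariate (-1.02, adjusted p = 0.0678). Exosc5, named after its values were seen, was at -0.93 (adjusted p = 0.0320). It did not pass in 7 of the 12 fits that left out 1 oocyte (GV oocytes 3, 4 and 5 and MII eggs 1, 3, 4 and 5), among them -0.65 without GV oocyte 4 (adjusted p = 0.0951) and -0.90 without MII egg 1 (adjusted p = 0.0562). The list then had 1 gene lower, as with the replicate block, and 0 with batch as a covariate. Scaled to spike-ins, 6 genes of the Lsm ring list, 3 of the other enzymes, 9 of the P-body partners and 7 of the exosome list were lower and none was higher, against 42.2% lower and 1.11% higher among all genes. In batch B none of the 45 genes of the 4 lists that were tested changed by edgeR, 3 were at unadjusted p under 0.05, and DESeq2 called none, with medians of -0.28, -0.23, 0.03 and -0.0034 in the order of the lists, against 0.02 over all genes tested. Among the oocyte markers 7 of 12 were lower and none higher in MII of batch A (11.5% and 9.06% of all genes were), and none changed in MI (0.0483% of all genes were lower and 0.0966% higher) by edgeR or DESeq2, with 3 at unadjusted p under 0.05.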

How the data were processed

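The authors deposited HTSeq counts for genes and RSEM expected counts for genes and transcripts, made with Trim Galore 0.6.4, STAR 2.7.6a, HTSeq 0.12.4 and RSEM 1.3.1 on mm10 with GENCODE VM20. Expected counts were rounded and tested in R 4.3.3 with edgeR 4.0.16 (TMM, filterByExpr, quasi-likelihood test, two-sided, Benjamini-Hochberg over all features tested, within each batch). The difference of changes was a contrast over 4 groups. ERCC rows were left out of library sizes and tests, except in the spike-in alternative. Transcript usage used diffSpliceDGE, and 3′-UTR length used limma 3.58.1 on genes with protein-coding transcripts, complete at the end, of at least 2 different 3′-UTR lengths and at least 10 counts on them in every oocyte. DESeq2 1.42.0 and the other alternatives are given in the closing section. Named genes were all 10 members, list genes past adjusted p under 0.05 and fold over 2 (otherwise the 2 with the smallest adjusted p), and each member's most counted transcript. Members and lists were chosen with earlier results of these data known. Gene positions and transcript ends came from GENCODE M21, matched by identifier without version. The gene and transcript tests, the test of the difference, the usage test and the 3′-UTR length test were tried on simulated data. The spike-in scale, the replicate block, the batch covariate, the permutation test, the search for outlying oocytes and the motif search were not. Expected counts come from PCR-amplified reads without molecular identifiers, so they are not counts of molecules. Figures were drawn with matplotlib 3.10.9 in Python 3.11.15.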

Additional observations from a re-analysis of the deposited data

Results flagged for a closer look

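Of 45 groups of 6 or 10 oocytes looked at for a single oocyte far from the rest, 9 held one. Chance gives about 1 in 20 groups where values are normal and groups independent. These groups share oocytes and normality was not checked, so the 2 rates cannot be compared directly. In GV of batch B, oocyte 6 had the lowest Dcp2, 50.9 CPM against 92.5 to 118 in the others, oocyte 4 had the highest Lsm14a, 229 CPM against 96.6 to 153, and oocyte 8 had the highest Edc3, 3.64 CPM against 0 to 1.39. MII egg 1 of batch A had 29816 genes detected against 19574 to 22598, and its blood and immune markers summed to 17.3 CPM against 0.780 to 2.42. The same markers summed to 1.99 CPM in GV oocyte 4 of batch A against 0.449 to 0.984. Granulosa and cumulus markers summed to 53.2 CPM in GV oocyte 10 of batch B against 19.95 to 36.6, and to 32.8 CPM in MII egg 2 of batch A against 19.97 to 24.2. The oocyte markers of MII egg 2 summed to 10541 CPM against 8735 to 9042.

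For 2 members the change from GV to MII in batch A differed from the change from GV to MI in batch B by edgeR's test of the difference: Dcp1a by 0.76 and Lsm14a by 0.85 on the log2 scale, where the MII change is the one by TMM and lies near 0 by spike-ins. Stage, source and batch cannot be told apart in these differences. The Dcp1a difference did not pass with HTSeq counts or without the low-count filter.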

How the results depend on the processing

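With spike-in library sizes in batch A, 0 members were higher and 3 lower (4 and 1 by TMM) and 5596 genes changed (2662 by TMM), and the named genes above 0 by TMM but below 0 on this scale were Dcp1a -0.034, Dcp2 -0.076, Edc4 -0.33, Xrn1 -0.11, Lsm14a -0.044, Lsm14b -0.41, Xrn2 -0.23 and Tnrc6a -0.023, since this scale moves all genes. The model of all oocytes with a batch covariate gave 0 members lower and 1234 genes changed in batch A, and 149 in batch B (18 in the within-batch fit). With the oocyte number as a replicate block, 1587 genes changed in batch A, with 4 members higher and 1 lower, and 0 genes in batch B, where Dcp1a was 0.090. Profiles of GV and MII oocytes of the same number correlated from -0.39 to 0.36, and in 1 of 6 cases best with their own number. For GV and MI oocytes of batch B the range was -0.20 to 0.14, with 0 of 10 best with their own number. Profiles cannot tell whether oocytes of the same number shared an animal or a day, and the labels do not say. Leaving out each oocyte of batch A in turn gave 4 to 5 members higher, 1 lower and 1991 to 2575 genes changed. In batch B, 166 genes changed with DESeq2, 44 without a low-count filter, 0 with HTSeq counts, 0 with HTSeq counts without MI oocytes 4, 8 and 9, and 39 with RSEM counts without them, an alternative chosen after seeing the data, and no member changed in any of the 9 alternatives of batch B. Dcp1a in batch B was 0.0056 with HTSeq counts and 0.0083 without MI oocyte 15. In the test of the difference 1 member was higher with HTSeq counts (319 genes changed, 823 as reported) and 1 without a low-count filter (1600 genes), and 512 and 925 genes changed without MII egg 1 and without MI oocyte 15, alternatives chosen after seeing the data. Among transcripts of batch A without a filter, 0 member transcripts were higher and 0 lower. DESeq2 gave 3419 transcripts changed in batch A (2089 with edgeR) and 120 in batch B (0 with edgeR), and limma gave 405 genes in the usage test (265 with edgeR). Except where the spike-in scale makes them so, the cause was not tested. All other counts of members were within 1.5 times the reported ones. Dcp1b and Edc3 rest on few counts per oocyte.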
